A study of Homo sapiens with 4 samples.

Results

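SPP1 (osteopontin), its receptor CD44 and 6 further genes of the cell surface and extracellular matrix (GPNMB, FN1, TIMP1, MMP9, THBS1 and VCAN) were followed across the 4 libraries of a study of PRMT9 depletion. The genes were taken by symbol from the count table, where each of the 8 matched 1 of 57992 rows. They were chosen by the measured change of SPP1, which is among the largest rises of the only contrast in the study. The values of that contrast are therefore given for these 8 genes as a description, without p-values.

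The cells were MOLM13, an established human cell line from an acute myeloid leukaemia, in a derivative labelled VEN-R (venetoclax-resistant), and every library received doxycycline. Doxycycline induced a control short hairpin RNA (shRNA; genotype given as WT) in 2 libraries and an shRNA against PRMT9, an arginine methyltransferase, in the other 2. Polyadenylated RNA was sequenced to total counts between 28592902 and 33845172 per library. The labels do not say whether libraries 1 and 2 of a group are separate cultures, repeats of 1 culture or different hairpin sequences, so the errors given here measure only the spread between these libraries, which may be technical. All values come from 1 cell line, and in bulk RNA a change in the number of cells that express a gene and a change in RNA per cell cannot be told apart. For PRMT9 itself the controls gave 398 and 406 counts, and the libraries with PRMT9 shRNA gave 81 and 78.

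Osteopontin is a secreted, acidic phosphoprotein that binds integrins through an RGD sequence and also binds CD44. CD44 is the main receptor for hyaluronan and links the cell surface to the actin cytoskeleton through ezrin, radixin and moesin. Macrophages that remodel tissue make osteopontin, GPNMB, fibronectin (FN1), matrix metalloproteinase 9 (MMP9) and its inhibitor TIMP1, while thrombospondin 1 (THBS1) and versican (VCAN) are matrix components that bind cells and growth factors. In acute myeloid leukaemia CD44 is known for its part in the lodging of leukaemic cells in the bone marrow.

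The promoter sequences of the genes with the largest differences, SPP1 and GPNMB, and of TIMP1 are shown. Of the 7 windows searched, these 3 are the ones that held a match to a motif. Factors known to act on these genes were also measured. Each is the 250 bases before the RefSeq start site on GRCh38.p14, written 5′ to 3′ on the strand of the gene. Capitals mark matches to motifs searched on both strands: the AP-1 motif TGANTCA, the RUNX motif TGTGGT and the MITF/TFE motif TCACNTGA. None of the matches in these windows overlaps another.
SPP1, chr4:87975464-87975713, plus strand: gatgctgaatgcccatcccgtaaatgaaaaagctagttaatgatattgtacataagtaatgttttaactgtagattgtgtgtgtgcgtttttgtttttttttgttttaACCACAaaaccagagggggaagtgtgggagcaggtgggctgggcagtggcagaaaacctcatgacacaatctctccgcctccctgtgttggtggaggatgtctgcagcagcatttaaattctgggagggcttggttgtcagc
GPNMB, chr7:23246525-23246774, plus strand: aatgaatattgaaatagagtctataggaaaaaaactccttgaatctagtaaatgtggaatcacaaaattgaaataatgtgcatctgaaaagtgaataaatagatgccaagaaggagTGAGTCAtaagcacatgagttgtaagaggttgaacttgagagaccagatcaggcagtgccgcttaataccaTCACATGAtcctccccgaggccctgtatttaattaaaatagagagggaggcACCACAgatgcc
TIMP1, chrX:47582186-47582435, plus strand: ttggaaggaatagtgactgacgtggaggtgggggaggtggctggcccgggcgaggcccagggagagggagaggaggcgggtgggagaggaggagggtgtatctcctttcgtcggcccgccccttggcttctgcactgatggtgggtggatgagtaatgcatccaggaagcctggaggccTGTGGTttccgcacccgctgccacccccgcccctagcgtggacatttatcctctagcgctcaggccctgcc

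A RUNX match began 142 bases before the start site in SPP1, 12 bases before it in GPNMB and 71 bases before it in TIMP1. The windows of CD44, FN1, THBS1 and VCAN held no match to these motifs, and no window of MMP9 was used. Among all 35116 RefSeq windows of this length, 11.0% held a RUNX match, against 3 of the 7 windows of these genes. The GPNMB window also held an AP-1 match beginning at 134 bases before the start, a motif in 6.57% of all windows, and an MITF/TFE match beginning at 63 bases before it, a motif in 3.20% of all windows. The motif of interferon-stimulated response elements was in 3.02% of all windows and in 0 of the 7. The windows of SPP1 and GPNMB had GC contents of 44.8% and 38.8%, below the median of 58.0% over all windows, whereas the other 5 lay between 60.8% and 76.4%. The count table starts GPNMB 10808 bases upstream of the RefSeq start used here, so transcripts that begin elsewhere are not covered by its window. The motifs were chosen after the letters were seen, and the matches describe letters in the windows, not binding.

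The deposited expression values per exon length (RPKM, reads scaled by exon length and library size) placed TIMP1 and CD44 above the other genes in both groups, by a wide margin in the controls and a smaller one over SPP1 after PRMT9 shRNA. In the controls the order of mean RPKM was TIMP1 (25.5 ± 0.270, SD, n = 2), CD44 (20.1 ± 1.15), SPP1 (1.29 ± 0.0224), THBS1 (0.250 ± 0.0605), GPNMB (0.183 ± 0.0885), MMP9 (0.130 ± 0.0331), VCAN (0.0223 ± 0.0128) and FN1 (0.0148 ± 0.000462). THBS1 and GPNMB overlapped between libraries in that order, as did GPNMB and MMP9, and VCAN and FN1. After PRMT9 shRNA the order was TIMP1 (36.4 ± 0.937), CD44 (29.2 ± 0.619), SPP1 (14.0 ± 0.787), GPNMB (2.38 ± 0.0515), MMP9 (0.355 ± 0.181), THBS1 (0.127 ± 0.0248), VCAN (0.0187 ± 0.00120) and FN1 (0.00959 ± 0.00567), and no neighbours overlapped. By RPKM, SPP1 ranked 10747 and 10748 among all rows in the controls, against 3014 and 2774 once PRMT9 was targeted.

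**Figure D1:**
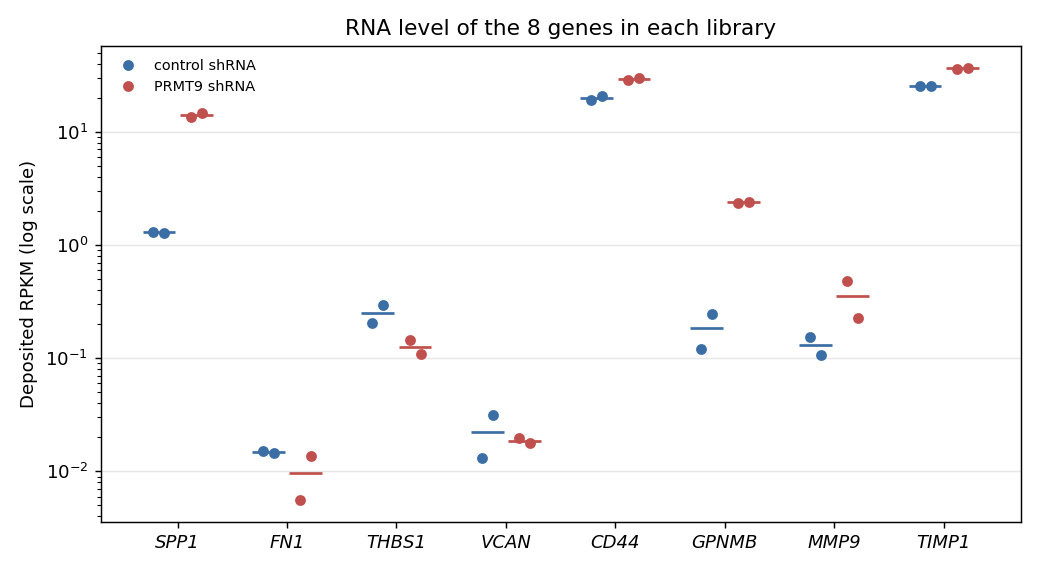
Deposited RPKM (log axis) of the 8 genes in each library, with points for libraries and horizontal lines for group means, control shRNA in blue and PRMT9 shRNA in red. SPP1 moves from 1.29 to 14.0 and GPNMB from 0.183 to 2.38, while TIMP1 and CD44 are the highest genes in both groups.

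Of the 8 genes, 6 had enough reads to enter the test across 15193 genes and 2, FN1 and VCAN, did not. All of the 6 passed an adjusted p below 0.05, 5 of them higher and 1 lower after PRMT9 shRNA. This is read against a contrast in which 68.0% of all tested genes passed, 33.4% higher and 34.5% lower. The 6 also had no overlap between groups, as did 83.3% of all tested genes. Since the genes were chosen with this contrast known, nothing is drawn from these counts. MMP9 passed the filter on low counts only through the group in which it was higher.

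SPP1, the secreted ligand, had 93 and 83 counts in the controls, against 968 and 1148 with PRMT9 shRNA. As CPM, counts scaled to library size with the TMM factors, these were 3.08 and 2.93 against 31.3 and 33.8. The libraries of a group lay close together and the groups were far apart. The log2 fold change was 3.44 (SE 0.09), a 10.8-fold higher level with a 95% confidence interval from 9.44 to 12.5. This change ranked 64 of 15193 from the highest. The gene lies on chromosome 4 (87975650 to 87983426, plus strand, GRCh38; ENSG00000118785), overlaps no other gene of the table, and none of its 50-base transcript windows occurs in another gene of GENCODE release 29.

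Fibronectin, another RGD-bearing ligand of integrins, was close to absent. FN1 had 8 and 7 counts in the controls, against 3 and 8 with PRMT9 shRNA (chromosome 2, 215360440 to 215436172, minus strand). With 15 and 11 counts per group the depth does not allow a difference of this size to be judged. THBS1, which encodes a glycoprotein that binds CD36, CD47 and integrins, had 58 and 75 counts in the controls, against 41 and 34 with PRMT9 shRNA (chromosome 15, 39581079 to 39599466, plus strand). At 1.92 and 2.65 CPM against 1.33 and 1.00 CPM the control libraries lay above both others. THBS1 fell by 0.97 on the log2 scale (SE 0.25), to 51.0% of the control level. It was the 1 gene of the 6 tested that was lower. The call was lost in log2(RPKM + 1), where the change was -0.15. Of its 50-base windows 5.10% occur in transcripts of other genes.

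Versican is a large chondroitin sulphate proteoglycan that binds hyaluronan. VCAN had 6 and 13 counts in the controls, against 9 in each PRMT9 shRNA library, and the groups overlapped (chromosome 5, 83471465 to 83582303, plus strand). The antisense gene VCAN-AS1 inside it had no count in any library.

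CD44 was the most abundant of the 8 genes in reads, with 5942 and 5893 control counts against 8975 and 10129 with PRMT9 shRNA. In CPM the controls were at 196 and 208 and the PRMT9 shRNA libraries at 290.2 and 298, with both of the latter above both controls. The log2 fold change was 0.54 (SE 0.03), or 1.46-fold (95% confidence interval 1.40 to 1.52). In 21.3% of tested genes the log2 fold change was higher than this. CD44 (chromosome 11, 35138870 to 35232402, plus strand) has 39 annotated transcripts in GENCODE release 29, and counts per gene do not separate its standard and variant forms.

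GPNMB is a transmembrane glycoprotein of macrophages, osteoclasts and pigment cells that binds heparan sulphate and integrins. Its counts were 22 and 41 in the controls, against 433 and 489 with PRMT9 shRNA (chromosome 7, 23235967 to 23275108, plus strand). At 0.727 and 1.45 CPM the controls differed by 1.99-fold from each other, while the PRMT9 shRNA libraries, at 14.0 and 14.4 CPM, agreed closely. The log2 fold change was 3.72 (SE 0.17), or 13.2-fold (95% confidence interval 10.3 to 16.8). It ranked 44 of 15193, above SPP1, from a control level that rests on few reads. Without control shRNA replicate 1 it was 3.29 and without control shRNA replicate 2 it was 4.30. In log2(RPKM + 1), where the added 1 is larger than the control values, it was 1.52.

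MMP9, a secreted gelatinase that CD44 can bind at the cell surface, had 11 and 7 control counts against 35 and 18 with PRMT9 shRNA. Its levels were 0.364 and 0.247 CPM against 1.13 and 0.530 CPM, and the PRMT9 shRNA libraries differed by 2.13-fold from each other. The log2 fold change was 1.40 (SE 0.47), with a 95% confidence interval from 0.40 to 2.40. The call was lost without PRMT9 shRNA replicate 1, where the change was 0.78. It was also lost in DESeq2 and in both analyses of log2(RPKM). MMP9 (chromosome 20, 46008908 to 46016561, plus strand) shares 11.2% of its 50-base windows with RP11-465L10.10, a gene on the opposite strand with 1 and 3 control counts against 9 and 10 with PRMT9 shRNA. Whether counting used strand is not given in the sources used here, so reads of the pair cannot be told apart.

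TIMP1, an inhibitor of MMP9 and other metalloproteinases that also acts as a cytokine, had 1212 and 1092 control counts against 1707 and 1939 with PRMT9 shRNA. At 40.1 and 38.5 CPM against 55.2 and 57.1 CPM, the groups were apart and the libraries within each group differed little. The log2 fold change was 0.51 (SE 0.04), or 1.43-fold (95% confidence interval 1.34 to 1.52). TIMP1 lies on chromosome X (47582313 to 47586789, plus strand) inside SYN1, which is on the opposite strand and had 1 count in all libraries together. The intervals of CD44 and TIMP1 overlap each other. The 8 genes lie on 8 different chromosomes.

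**Figure D2:**
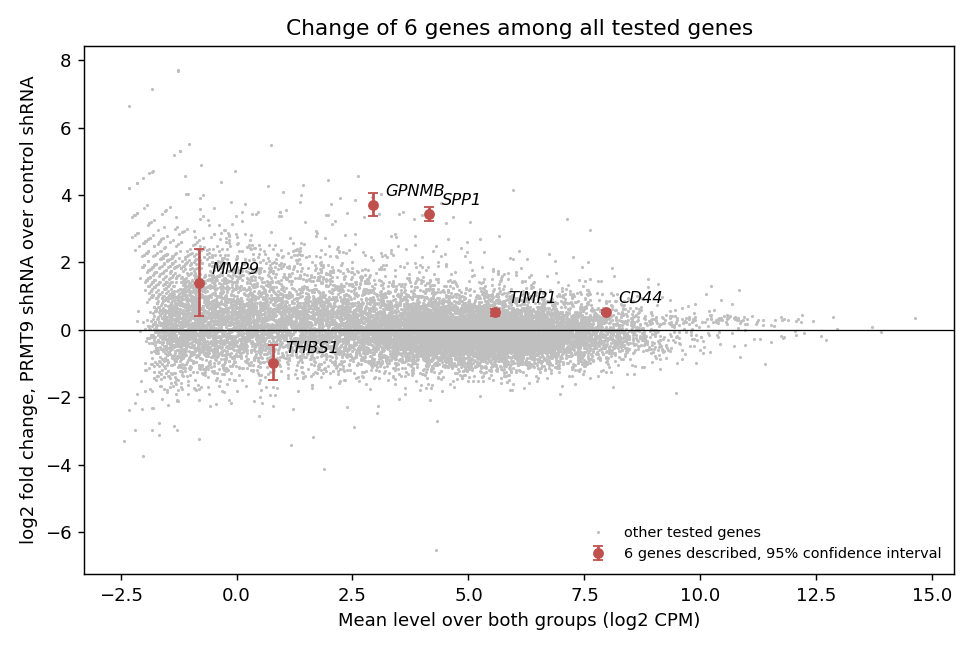
Log2 fold change (PRMT9 shRNA over control shRNA) against mean level (log2 CPM) for all tested genes in grey and for 6 of the 8 genes in red, with 95% confidence intervals as bars. SPP1 (3.44) and GPNMB (3.72) lie above the main cloud, CD44 (0.54) and TIMP1 (0.51) inside it, and the intervals of MMP9 and THBS1 are wide.

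The genes whose pattern over the 4 libraries was most like SPP1 were OASL, CKB, SLC6A8, HIST1H4H and IL4I1. Likeness was the distance between log2 CPM values centred on each gene's mean, and it was 0.0859 for OASL, an interferon-induced relative of the OAS enzymes, and 0.152 for the creatine kinase gene CKB. The creatine transporter gene SLC6A8 was at 0.164, the histone gene HIST1H4H at 0.190 and IL4I1, a secreted amino acid oxidase, at 0.195. OASL went from 0.926 and 0.811 CPM to 9.31 and 9.90 CPM. With 4 libraries in 2 groups, this measure mostly ranks genes by the size of their difference between groups.

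The receptors of these ligands did not move in 1 direction. Of 16 genes on the list of receptors for osteopontin, fibronectin and thrombospondin, 9 were tested, of which 6 rose and 3 fell. The median of their log2 fold changes was 0.34, against 0.00 over all tested genes. Shares over all tested genes were 33.4% higher and 34.5% lower, here and for each list below. The lists were chosen with results of this contrast known, so their counts are only described. ITGB1, the beta-1 integrin subunit, went from 196 and 197 CPM to 61.5 and 61.1 CPM, a change of -1.68 on the log2 scale (SE 0.03, edgeR adjusted p = 4.57e-17). Its alpha partners differed. ITGA5, which with beta-1 forms the main fibronectin receptor, rose from 161 and 158 CPM to 294 and 292 CPM (0.87, SE 0.02, adjusted p = 8.65e-15). ITGA4 fell by 0.30 on the log2 scale (SE 0.03, adjusted p = 1.52e-08) and ITGAV, the alpha-V subunit of osteopontin receptors, by 0.51 (SE 0.06, adjusted p = 1.80e-06). The thrombospondin receptors CD36 and CD47 rose by 0.34 and 0.12, the latter a call lost in both analyses of log2(RPKM). LRP1, a thrombospondin-binding endocytic receptor named after its values were seen, had the highest change of the list and rose from 1.06 CPM in each control to 4.69 and 4.95 CPM (2.18, SE 0.19, adjusted p = 1.95e-08). ITGB5 had at most 0.619 CPM in any library (1.31, SE 0.51, adjusted p = 0.0334), and its call was lost in 8 of 14 alternatives, among them DESeq2 and leaving out control shRNA replicate 2 (0.76), PRMT9 shRNA replicate 1 (1.46) or PRMT9 shRNA replicate 2 (1.12). With 10 and 3 control counts, ITGB5 passed the filter on low counts only through the PRMT9 shRNA group. The beta-3 subunit gene ITGB3 was not tested, with 4 and 5 control counts against 15 and 8. ITGA9 had at most 1 count in a library.

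Genes that act on CD44 inside the cell or cut it were split as well. Of 12 genes on the list of CD44 linkers and sheddases, 11 were tested, 6 rose and 4 fell (median 0.14). MSN and EZR, which encode moesin and ezrin, fell by 0.23 (SE 0.02, adjusted p = 3.15e-09) and 0.38 (SE 0.03, adjusted p = 7.99e-09), while radixin (RDX) rose by 0.14 (SE 0.03, adjusted p = 0.00128), a call lost in log2(RPKM + 0.1). Moesin was the most abundant, at 1442 and 1432 CPM in the controls and 1223 and 1236 CPM after PRMT9 shRNA. CD74, the invariant chain that pairs with CD44 in a receptor complex, rose from 96.0 and 95.9 CPM to 163 and 167 CPM (0.78, adjusted p = 2.63e-13), and the scaffold gene IQGAP1 rose by 0.49.

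Few hyaluronan genes were expressed. Of 16 genes for its synthesis, breakdown and binding, 5 were tested, 1 rose and 3 fell (median -0.54). HAS1 and HAS2 had no count, and the synthase gene HAS3 fell from 2.28 and 2.58 CPM to 0.905 and 1.21 CPM (-1.19, SE 0.23, adjusted p = 2.47e-04). HMMR, a hyaluronan-binding protein of the mitotic spindle, fell by 0.54 (SE 0.04), and the hyaluronidase gene HYAL3 rose by 1.39 (SE 0.08, adjusted p = 8.11e-11). Another hyaluronidase gene, HYAL2, named after its values were seen, fell by 0.69 (SE 0.14).

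Among metalloproteinases and their inhibitors, 17 of 33 genes were tested, 11 rose and 5 fell (median 0.25). MMP14, a membrane-bound collagenase, was the most abundant MMP gene named here, at 109 and 109 CPM in the controls and 125 and 128 CPM after PRMT9 shRNA (0.22, SE 0.03, adjusted p = 3.87e-06). The gelatinase gene MMP2 rose by 0.44 (SE 0.06). MMP19 rose from 0.463 and 0.212 CPM to 4.82 and 4.86 CPM (3.81, SE 0.26, adjusted p = 1.08e-09). With 14 and 6 control counts, it passed the filter on low counts only through the PRMT9 shRNA group. TIMP2 rose from 11.3 and 10.9 CPM to 18.9 and 19.1 CPM (0.77, SE 0.07, adjusted p = 6.77e-08), whereas TIMP3 had 1 count in all libraries together and TIMP4 none. CD63, a tetraspanin that binds TIMP1, fell by 0.17 (SE 0.04), a call lost with upper-quartile scaling and in log2(RPKM + 0.1). The matrix proteases ADAMTS1 and ADAMTS10 went in opposite directions (-0.81 and 1.33). LCN2, which stabilises MMP9, had 1 count in all.

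Plasminogen activation feeds into metalloproteinase activation. Of 12 genes on its list 8 were tested, 7 rose and 1 fell (median 0.95), beside 33.4% higher and 34.5% lower over all tested genes. S100A10, which with annexin A2 binds plasminogen at the cell surface, rose from 41.5 and 38.2 CPM to 117 and 121 CPM (1.58, SE 0.04), and the urokinase receptor gene PLAUR rose by 0.89 (SE 0.04).

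Of 59 structural matrix genes 26 were tested, 19 rose and 3 fell (median 0.86), and 12 had no count in any library. Over all tested genes 33.4% were higher and 34.5% lower. The basement membrane proteoglycan genes HSPG2 and AGRN rose by 1.87 (SE 0.08) and 1.01 (SE 0.04), and the laminin chain gene LAMC1 rose from 181 and 185 CPM to 317 and 315 CPM (0.79, SE 0.02, adjusted p = 2.25e-14). THBS3, a relative of THBS1, rose from 11.6 and 10.5 CPM to 30.5 and 28.4 CPM (1.41, SE 0.07, adjusted p = 2.30e-11), opposite to THBS1. SRGN, the intracellular granule proteoglycan serglycin, was the most abundant of the genes named from this list and fell from 1569 and 1541 CPM to 1139 and 1199 CPM (-0.41, SE 0.02, adjusted p = 5.75e-11). IBSP, DMP1 and MEPE, relatives of SPP1 in the same family of acidic bone proteins, had no count in any library.

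**Figure D3:**
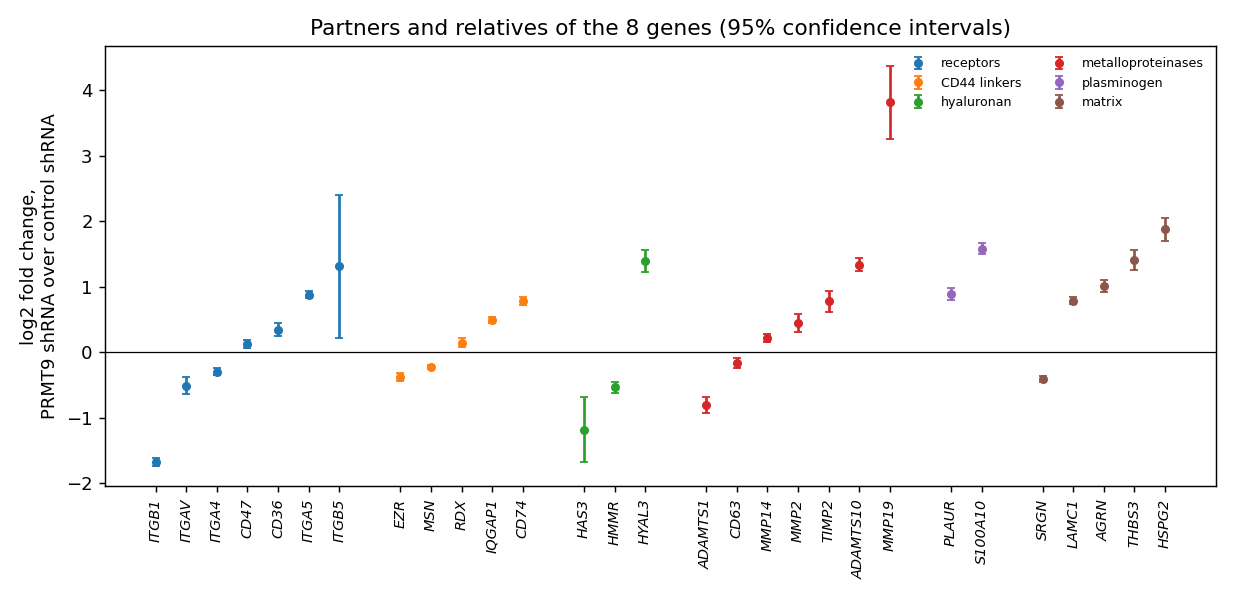
Log2 fold change (PRMT9 shRNA over control shRNA) of genes named from 6 lists, with 95% confidence intervals as bars and 1 colour for each list. The receptors shown run from ITGB1 (-1.68) to ITGB5 (1.31), and MMP19 (3.81) is the highest gene shown.

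Enzymes that modify matrix included 6 rises and 1 fall among 16 tested genes of 23 (median 0.19). P4HA1, a collagen prolyl hydroxylase subunit, rose from 119 and 120 CPM to 423 and 433 CPM (1.85, SE 0.02, adjusted p = 2.87e-18), the lysyl hydroxylase gene PLOD1 by 1.11 (SE 0.03) and the prolyl hydroxylase gene P3H2 by 2.85 (SE 0.15). Chondroitin sulphate synthesis, which builds the side chains of versican and of some CD44 forms, had 9 rises and 3 falls among 18 tested genes of 19 (median 0.26). XYLT1, which starts the chain, rose by 0.72 (SE 0.06), CHST11 by 0.41 (SE 0.02), and B3GALT6 fell by 0.46 (SE 0.05). In the list of TGF-beta genes, 16 of 19 were tested, 7 rose and 5 fell (median 0.11). TGFB1, whose latent form thrombospondin 1 can activate, rose from 86.6 and 85.9 CPM to 178 CPM in each PRMT9 shRNA library (1.04, SE 0.03, adjusted p = 6.68e-15). TGFBR2 rose by 0.54 (SE 0.05) and SMAD2 fell by 0.42 (SE 0.03).

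**Figure D4:**
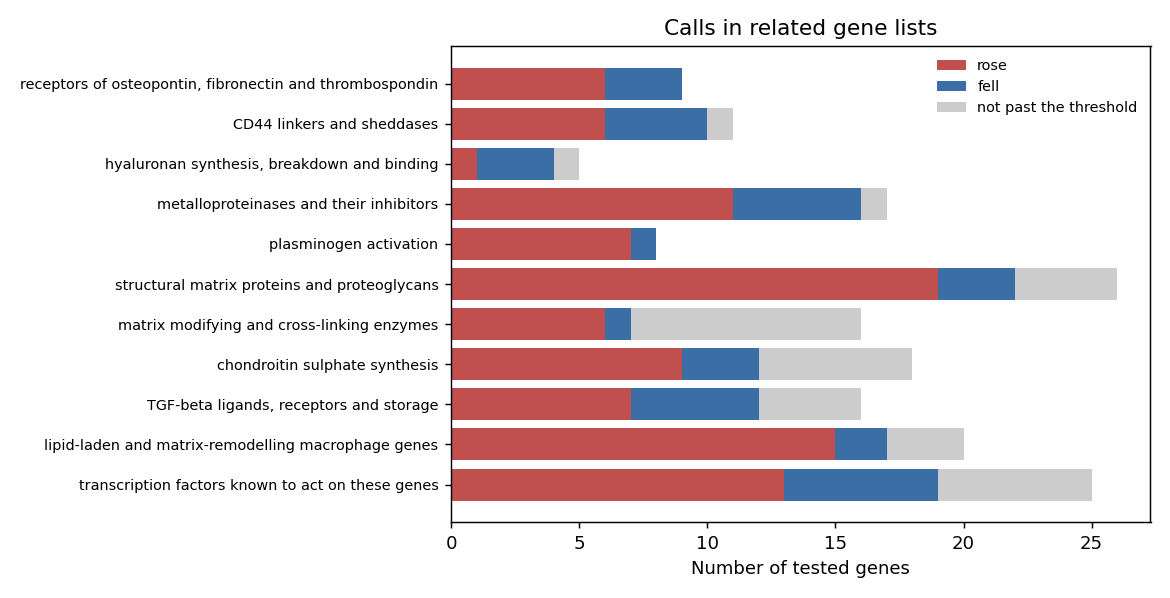
Number of tested genes (horizontal axis) in each of 11 related gene lists that rose, fell or did not pass an adjusted p below 0.05. In all lists together 100 of 171 tested genes rose and 36 fell.

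Genes of lipid-laden and matrix-remodelling macrophages had 15 rises and 2 falls among 20 tested genes of 32 (median 1.03). The lysosomal protease gene CTSB rose from 256 and 250.5 CPM to 460 and 467 CPM (0.87, SE 0.02, adjusted p = 2.97e-15), the lysosomal lipase gene LIPA by 0.82 (SE 0.03) and LGALS3, which encodes galectin 3, by 1.31 (SE 0.08). The fatty acid binding protein gene FABP5 fell from 65.5 and 69.0 CPM to 29.6 and 31.0 CPM (-1.15, SE 0.05). APOE was not tested, with 0 and 2 control counts against 10 and 7. Some macrophage markers had few or no counts, although most tested genes of this list rose. CD68 had 4 and 5 control counts against 9 and 10, MRC1 had at most 3 counts and C1QB none. These genes were named after their values were seen. How reads were counted is not given, and overlap with other genes was looked up only for the 8 genes. Low counts are therefore not read here as absence of RNA. CD14 rose as well, from a mean of 0.174 CPM in the controls to 0.633 CPM after PRMT9 shRNA, both low levels. CSF1R rose from 16.9 to 61.4 CPM (1.86, SE 0.06). The 8 genes are described by name, and whether the cells became more like macrophages was not tested.

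Across all 11 lists, 171 of 266 genes were tested, of which 100 rose (58.5%) and 36 fell (21.1%). The median of their log2 fold changes was 0.36. The shares over all tested genes were 33.4% and 34.5%. The lists were chosen with results of this contrast known, and nothing particular to them is drawn from these shares.

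Transcription factors known to act on these genes were all expressed. Of 25 tested factors 13 rose and 6 fell (median 0.21). MITF, which drives GPNMB in pigment cells, fell from 10.2 and 11.4 CPM to 5.17 and 5.86 CPM (-0.96, SE 0.11, adjusted p = 6.40e-07), while its relative TFEC rose from 30.4 and 28.4 CPM to 60.7 and 62.0 CPM (1.06, SE 0.05, adjusted p = 2.77e-12). The other relatives TFEB and TFE3, named after their values were seen, rose by 0.58 and 0.44. RUNX1 was at 289 and 292 CPM in the controls and 257 and 266 CPM after PRMT9 shRNA (-0.15, SE 0.02, adjusted p = 2.49e-05), a call lost in log2(RPKM + 0.1). RUNX2, also named afterwards, was at 61.3 ± 1.96 CPM (SD, n = 2) and 59.9 ± 3.79 CPM and did not pass the threshold (-0.03, SE 0.05), with a sign that turned under upper-quartile scaling (0.058). The AP-1 subunit gene JUNB rose by 0.65 (SE 0.03), SPI1, which encodes the myeloid factor PU.1, by 0.34 (SE 0.03), and BHLHE40 by 0.85 (SE 0.04).

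Markers of other cell types that make these matrix proteins were examined beside them. All 10 myeloid leukaemia cell markers were tested, 8 rose and 2 fell, and their summed level went from 2125 and 2123 CPM to 3049 and 3080 CPM. CD14, which is among the 8, passed the filter on low counts only through the PRMT9 shRNA group. The 8 fibroblast markers summed to 3.08 and 3.32 CPM in the controls and 5.53 and 6.33 CPM after PRMT9 shRNA, with 2 rises among 3 tested, most of it from FAP (2.33 to 3.88 CPM), and COL3A1 had no count. Of the 8 megakaryocyte and platelet markers PF4 and PPBP had no count, and the sum was 0.628 and 0.847 CPM against 1.36 and 1.03 CPM. The 1 marker tested, ITGA2B, rose at a low mean level of 0.534 CPM over both groups. The 7 endothelial markers summed to 141 CPM in each control and 240.0 and 244 CPM after PRMT9 shRNA, nearly all PECAM1, which myeloid cells also carry and which was the 1 marker tested, and CLDN5 and EMCN had no count. The 9 osteoblast and osteoclast markers summed to 63.3 and 66.2 CPM against 66.3 and 71.6 CPM. Most of this sum was RUNX2, which did not pass the threshold. There were 2 rises among 4 tested, and IBSP had no count. Among 7 epithelial markers 2 were tested and both rose, the sum was 27.3 and 27.6 CPM against 36.7 and 35.5 CPM, and EPCAM, KRT5, KRT14 and KRT19 had no count. The 7 lymphoid markers summed to 15.8 and 14.8 CPM against 26.9 and 28.1 CPM, nearly all NKG7, with 1 rise among 2 tested, and CD2 had no count. All libraries are labelled as the same cell line, so these sums describe marker RNA in that culture and not a mixture of tissues. The source of the RNA of SPP1 and the other genes was not tested.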

How the data were processed

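For the 4 libraries the authors deposited raw counts by gene and, in a separate table, RPKM values, with gene positions on GRCh38. The submitters' processing notes list Trimmomatic 0.39, STAR 2.7.2a and SAMtools 1.10. How reads were counted, whether strand was used and which annotation applied is not given in the sources used here. Total counts per library ranged from 28592902 to 33845172.

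Genes were filtered with filterByExpr (minimum count 10), scaled by TMM and tested with edgeR 4.0.16 (quasi-likelihood, robust, group term only) in R 4.3.3, on 15193 genes with Benjamini-Hochberg adjustment and a threshold of 0.05. SE is the log2 fold change divided by the root of the F statistic, and intervals use its degrees of freedom. Alternatives used DESeq2 1.42.0, limma 3.58.1 and other scalings, filters and sets of libraries. RPKM were analysed as log2 with 1 or 0.1 added. The 8 genes and the 18 lists (11 of related genes, 7 of cell type markers) were chosen with earlier results of these data known. Named genes are the 8, up to 3 genes per related list with the lowest adjusted p at 1 CPM or more, fixed direct partners, PRMT9, the 5 genes nearest to SPP1, and marker genes. Some further genes of the lists were named after their values were seen, among them genes with few or no counts. Values of 2 genes that are on these lists are not reported here. Promoter windows are those of RefSeq (GRCh38.p14), matched by symbol for 7 of the 8 genes.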

Additional observations from a re-analysis of the deposited data

How the results depend on the processing

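Over the 15 alternatives, all computed from the libraries that led to the choice of these genes, the log2 fold change of SPP1 ranged from 2.71 to 3.53 and that of GPNMB from 1.52 to 4.30. CD44 (0.49 to 0.63) and TIMP1 (0.49 to 0.60) lost the threshold only in the test against a fold of 1.5, THBS1 (-1.20 to -0.15) there and in log2(RPKM + 1). MMP9 (0.26 to 1.87) lost it in 5 of 14 alternatives and was not tested with the filter at 1 CPM. Against a fold of 1.5, the calls were 2 of the 8 genes, 59 list genes (52 higher, 7 lower) and 2884 genes in all (1679 higher, 1205 lower), fewer by the construction of that test. With upper-quartile scaling 5933 genes were called higher and 4443 lower. Of the other named genes only RUNX2, which was not called, turned its sign, at 0.058 with upper-quartile scaling, 0.0016 with the filter at 1 CPM and between -0.10 and 0.030 with a library left out. FN1 and VCAN, fitted without a filter on low counts, had log2 fold changes of -0.58 and -0.22. With the replicate number as a block, 10307 genes were called against 10327 without it, and no call on the 8 genes changed. The deviations of same-numbered libraries correlated across genes at -0.03. Such a correlation over all tested genes cannot tell whether same-numbered libraries share a culture or batch. Leaving out any library leaves a lone library in its group, assumed to vary like the other group. Counts below about 20 per library limit FN1 and VCAN, and MMP9 in all libraries but PRMT9 shRNA replicate 1, which had 35.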
